A study of Mus musculus with 7 samples.

Results

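Proton pump and chloride exchange genes were followed through single-cell libraries of the mouse seminal vesicle. The 9 genes are Atp6v1g3, Atp6v1b1, Atp6v1b2, Atp6v0d1 and Atp6v0d2 of the vacuolar proton pump, the chloride-proton exchanger gene Clcn5, the transcription factor gene Foxi1, the anion exchanger gene Slc4a9 and the carbonic anhydrase gene Car2, out of 30406 genes present in both references. They were chosen from their levels in secretory cells, in prostate-like cells and in the epithelium of the young and old individual libraries, and from their trend with age, so these values are given as a description and without a test. Every level is in CPM, the UMIs of a gene (unique molecular identifiers, each counted once per captured RNA molecule at its 3′ end, so that no length term enters) per 1000000 UMIs of the cells named.

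The series holds 23 male mice in 7 libraries. The aging pool holds 10 C57BL/6J mice on chow, namely 2 of 3 months, and 2 untreated mice and 2 given rapamycin transiently at each of 20 and 28 months. The diet pool holds 8 FVB/NJ mice of 3 months, 2 each on control diet, caloric restriction, high fat diet and low protein diet. A further 3 FVB/NJ mice of 3 months, 1 on each diet other than caloric restriction, were run in libraries of their own. The last 2 libraries, called young individual and old individual, are FVB/NJ mice of 3 and 18 months, 1 mouse each, so nothing between them was tested.

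The vacuolar proton pump is a rotary machine in which a cytoplasmic V1 sector splits ATP and a membrane V0 sector carries protons, and most cells use it to acidify lysosomes and secretory vesicles. Specialised acid-secreting cells of kidney and epididymis place it in the plasma membrane with isoforms of their own, among them the B1 subunit (Atp6v1b1), G3 (Atp6v1g3), d2 (Atp6v0d2) and a4 (Atp6v0a4), and depend on Foxi1 to switch these genes on. B2 (Atp6v1b2) and d1 (Atp6v0d1) are the widespread partners of B1 and d2, Clcn5 exchanges chloride for protons in endosomes, Slc4a9 carries anions across the basolateral membrane of some acid-base transporting cells, and Car2 makes the bicarbonate and protons that such transport uses.

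After filtering, 40342 of 53352 deposited cells were kept. Per mouse, the kept cells held between 971402 and 14726866 UMIs in the 2 pools and between 24809486 and 46333394 in the 5 single-mouse libraries. Secretory cells, in which Svs2, Svs4, Svs5 and Svs6 make up at least 30% of UMIs, numbered 9734, and prostate-like cells, in which Tgm4 and Pbsn make up at least 0.5%, numbered 678. Of the secretory cells 72 lay between 30 and 35% and 61 further cells between 25 and 30%, while 71 prostate-like cells lay between 0.5 and 0.75% and 80 other cells between 0.25 and 0.5%. The young and old individual libraries went against their seminal vesicle label, with Svs5 at no more than 3.55 CPM against at least 34607 in every other mouse, and no cell of them passed the secretory cut, so they are always given apart. Much of their epithelium carried epididymis principal cell genes (Lcn8, Lcn9, Gpx5, Crisp1, Adam7, Adam28 and Cst11). In clusters at resolution 0.5 their sum reached 143032 CPM in 328 cells and 84334 in 1002 cells. It was 1224 in the cluster richest in Atp6v1g3. In the next richest, of 41 cells of which 28 had at least 3 Atp6v1g3 UMIs, it was 65820. In non-secretory epithelium of the other 21 mice, a cluster of 20 cells was at 30723 and the next highest at 30.1. The tissue of origin was not tested. Mice of a pool shared no barcode, and pairs of libraries shared 6 to 30. No doublet caller was run.

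The 9 genes fell into those read in a few cells and those read in many. Atp6v1g3 had 5542 UMIs, and 135 cells, 0.335% of all kept cells, held 50% of them. For Clcn5 (6762 UMIs) that took 182 cells, and for Foxi1 (1158 UMIs) 117 cells. Atp6v0d2 had 1496 UMIs in 1068 cells and Atp6v1b1 only 167 UMIs in 138 cells. The widespread subunits were spread far more, since 1429 cells were needed to reach 50% of the 6594 UMIs of Atp6v1b2 and 2665 cells for the 11492 UMIs of Atp6v0d1. Car2 lay between, with 11439 UMIs and 808 cells. Slc4a9 had 15 UMIs in 15 cells, too few for any statement on its level beyond that count. Of the restricted genes, most UMIs came from the young and old individual libraries, from 64.7% of those of Atp6v1b1 to 88.2% of those of Atp6v0d2, with 78.5% for Atp6v1g3. Of the widespread genes it was 60.2% for Atp6v1b2 and 42.2% for Atp6v0d1, and it was 23.7% for Car2. These libraries held 18277 of the 40342 kept cells.

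In secretory cells, Car2 was the highest of the 9 genes and the isoform genes of acid-secreting cells were near 0 in most mice. Over 21 mice Car2 had a median of 32.3 CPM with a range of 16.1 to 76.3, and Atp6v0d1 had 20.7 with a range of 12.1 to 29.8. The ranges of these neighbours overlap. Atp6v1b2 followed at 4.40 with a range of 0 to 9.04, below the lowest mouse of Atp6v0d1. Clcn5 had a median of 2.14 with a range of 0 to 33.8, Atp6v1g3 0.242 with a range of 0 to 29.1, Foxi1 0.115 with a range of 0 to 2.68 and Atp6v0d2 0.0224 with a range of 0 to 2.68. In the last 4 genes the spread over mice was many times the median, and Atp6v1g3 was at 0 in 8 of the 21 mice. For scale, Atp6v1g1, the widespread G subunit, had a median of 67.2 CPM over the same mice with a range of 47.7 to 132, and the neuronal G subunit gene Atp6v1g2 had 32 UMIs in all of them against 414 for Atp6v1g3. The exchanger genes Clcn3 and Clcn4, of the same family as Clcn5, had medians of 19.8 and 5.66 CPM.

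Nearly all Atp6v1g3 signal of the secretory cells came from 26 cells. These were the secretory cells with at least 3 Atp6v1g3 UMIs, a group set after the values were seen and therefore only described. They came from 10 mice, all of them in the 2 pools, which have 760 and 482 secretory cells. The 26 cells held 93.0% of the secretory UMIs of Atp6v1g3, 93.6% of those of Atp6v0d2, 87.1% of Atp6v1b1, 78.9% of Foxi1 and 74.8% of Clcn5. They held 3.41% of the UMIs of Atp6v1b2, 2.87% of Car2 and 1.95% of Atp6v0d1. The 5 restricted genes were therefore read in the same few barcodes, and the 3 widespread genes were not. Without these cells, the secretory cells of the diet pool had 0 UMIs of Foxi1, Atp6v0d2 and Atp6v1b1 and 3 of Atp6v1g3, while Car2 kept a median of 34.8 CPM there. For Atp6v1g3 a count near 0 was fixed by the choice of these cells.

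**Figure D1:**
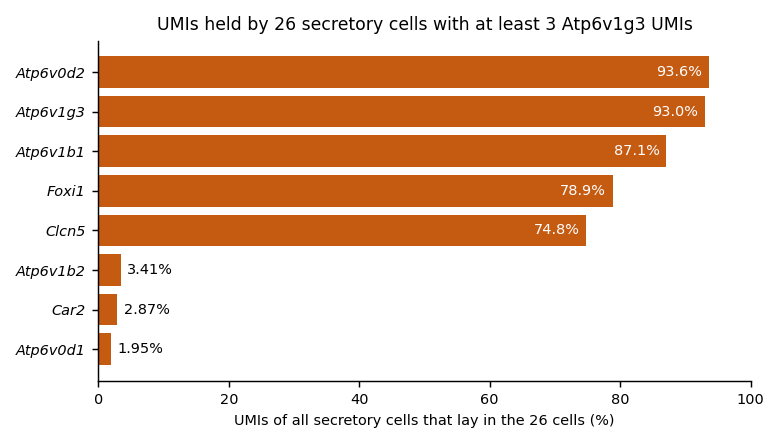
Share of all secretory-cell UMIs of each gene (x axis, percent) that lay in the 26 secretory cells with at least 3 Atp6v1g3 UMIs. The upper 5 bars run from 74.8 to 93.6% and the lower 3 from 1.95 to 3.41%.

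The 26 cells also differed in the rest of their RNA. Their median was 57512.5 UMIs and 4950 genes, against 38636 UMIs and 2659 genes in 1208 secretory cells of the pools without Atp6v1g3. Svs genes took a median of 44.4% of their UMIs, from 30.4 to 58.8%, against 55.4% in the others. Of 135 secretory cells with more than 2 times the median gene number of their mouse, 6 were among them, and 13 of the 26 had at least 3 UMIs of the basal marker list against 351 of the 1208. Whether some of these barcodes hold more than 1 cell was not tested. Atp6v1g3 was below 1 CPM in the secretory cells of all 3 diet libraries run singly, at 0.115 to 0.242, and none of their 8492 secretory cells had 3 UMIs of it.

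Over age, the restricted genes were highest at 3 months and lowest at 28 months by the median over mice. In the secretory cells of the aging pool, Atp6v1g3 was at 9.55 and 29.1 CPM in the 2 mice of 3 months. At 20 months it was 2.58 and 5.11 without and 0 and 15.1 with rapamycin, and at 28 months 0 and 0 without and 1.51 and 6.52 with it. The 3-month range lay above the 28-month range but overlapped that of 20 months, where a rapamycin-treated mouse was above a 3-month mouse. The counts of 0 in the 28-month untreated mice rest on 35 and 37 cells and allow up to 1.72 and 1.61 CPM (3 counts, counting error only). That limit treats UMIs as independent, while 1 secretory cell of a 3-month mouse held 37 Atp6v1g3 UMIs. With so few cells, the counts of 0 do not place these mice below the 3-month mice.

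Clcn5 followed the same order, with 21.1 and 33.8 at 3 months, a range of 1.24 to 23.7 over the 4 mice of 20 months and of 1.72 to 12.5 over those of 28 months. Foxi1 ran from 1.47 to 2.68 at 3 months, from 0 to 2.63 at 20 months and from 0 to 1.09 at 28 months. Atp6v0d2 ran from 1.38 to 2.68, from 0 to 2.30 and from 0 to 0.272. For each of these 3 genes the 3-month range lay above the 28-month range and overlapped the 20-month range. The share of all genes with such ranges was not counted, and with 2 mice against 4 such an order can arise by chance. These genes and Atp6v1g3 were read largely in the same few cells, so they are not separate instances. Atp6v1b1 overlapped at all ages, with at most 1.67 CPM at 3 months.

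The widespread genes did not share that order. Atp6v0d1 was within 18.5 to 20.7 at 3 months, 20.1 to 23.5 at 20 months and 15.5 to 22.3 at 28 months, and Car2 within 22.1 to 32.3, 16.1 to 50.9 and 23.6 to 76.3. Both overlap at every age. Atp6v1b2 was at 5.60 and 6.02 at 3 months, 4.40 to 8.18 at 20 months and 1.61 to 4.91 at 28 months, so that the last range lay below the first. With the Atp6v1g3 cells left out, an alternative chosen after the data were seen, the 3-month values were 0 and 0.190 for Atp6v1g3 and 0.374 and 1.99 for Clcn5, against 0 in every 28-month mouse and 0.552 to 2.14. The fall of Atp6v1g3 was fixed by the choice of these cells, so only the Clcn5 values are informative.

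**Figure D2:**
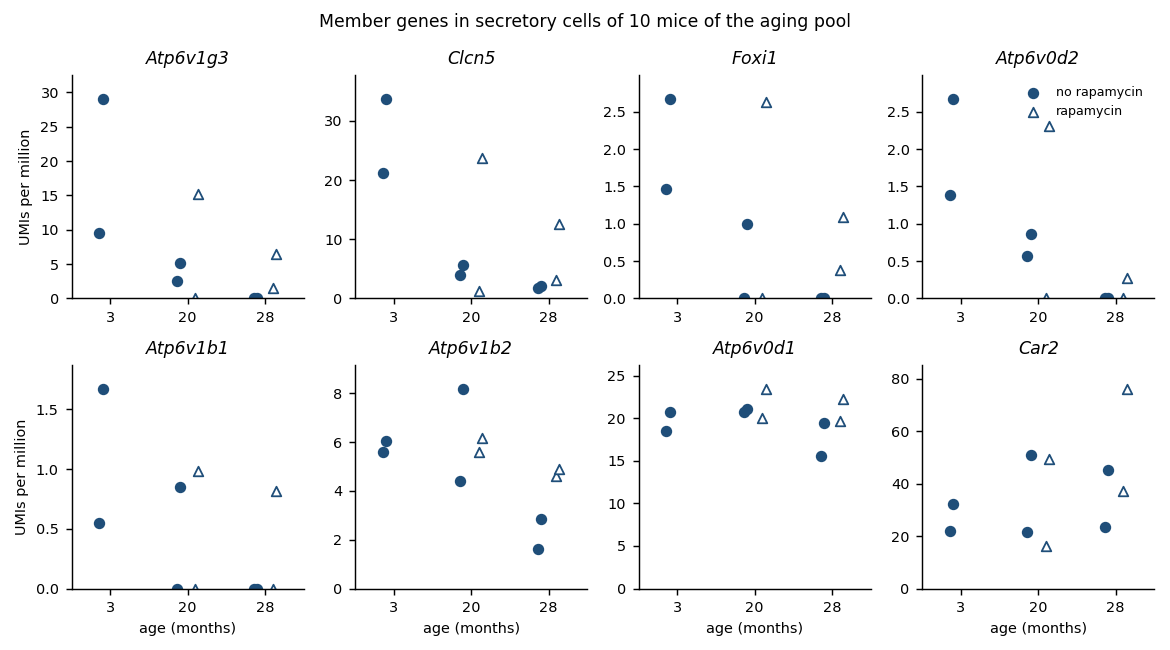
CPM (y axis, linear) of 8 member genes in secretory cells of each of the 10 mice of the aging pool, by age in months (x axis). Filled circles are untreated and open triangles rapamycin-treated mice, and the restricted genes in the upper row fall to 0 in both untreated mice of 28 months except for Clcn5.

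The share of such cells among all kept cells was highest at 3 months, and most of them were secretory. Cells with at least 3 Atp6v1g3 UMIs were 11 of 1065 kept cells at 3 months, 9 of 1669 at 20 months and 3 of 2280 at 28 months, in 2 of 2, 3 of 4 and 2 of 4 mice. Of these, 9 were among 263 secretory cells at 3 months, 6 among 293 at 20 months and 2 among 204 at 28 months. Among non-secretory epithelial cells they were 2 of 185, 3 of 250 and 1 of 206 (1.08, 1.20 and 0.485%), so there the share was not highest at 3 months. By mouse the share was 0.986 and 1.13% at 3 months, 0 to 0.993% at 20 months and 0 to 0.396% at 28 months. Each mouse's exact binomial 95% interval is wide, for example 0.308 to 2.86% for the 4 cells of 355 in one 3-month mouse and up to 0.455% for 0 of 809 in one mouse of 28 months. With 2 mice at 3 months and counts this low, fewer such cells and less RNA per cell cannot be told apart in the summed levels. Of the other genes of the pathway, 25 were tested for a slope with age in edgeR's quasi-likelihood test and 0 passed an adjusted p of 0.05, as did 0 of all 6848 genes (0% called, 374 at an unadjusted p under 0.05, and 8 genes by DESeq2).

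Diet and rapamycin were not used to choose the genes, and these contrasts were tested over all genes that passed the count filter. The members' levels in secretory cells of these same mice were used, so for them the tests are not independent of the choice. The filter was not applied to each group alone. In the diet pool Atp6v1g3 had 62 secretory UMIs in control mice against 7, 18 and 0 under caloric restriction, high fat and low protein. Of the 9 members 5 passed it, namely Atp6v1g3, Clcn5, Atp6v1b2, Atp6v0d1 and Car2, and 0 were called in any of these contrasts. Under the high fat diet 0 of 7112 genes were called by edgeR (0%, 103 at an unadjusted p under 0.05, 0 by DESeq2), and under the low protein diet also 0 (0%, 156 at an unadjusted p under 0.05, 0 by DESeq2).

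Clcn5 had low raw p-values without passing. In the diet pool it was at 0 and 17.5 CPM in the control mice, 0.572 and 1.26 in the low protein mice, 0 and 3.12 under caloric restriction and 1.72 and 6.08 on high fat. In the single libraries it was 0.876 for control, 0.630 for low protein and 1.08 for high fat. Every diet's range falls inside that of the 3 controls, of which 1 mouse carried the high level. Without its 6 secretory cells of at least 3 Atp6v1g3 UMIs, that mouse was at 2.08 CPM. The restricted mouse at 3.12 was at 2.24 without its 1 such cell. The log2 difference from control was -1.84 (SE 0.64, edgeR adjusted p = 1.00) for low protein and -2.31 (SE 0.85, edgeR adjusted p = 0.203) for caloric restriction. For Atp6v1g3 under caloric restriction it was -2.35 (SE 1.13, edgeR adjusted p = 0.361), from 0, 0.157 and 12.1 in the controls and 0 and 2.18 in the restricted mice. The caloric restriction mice were not without such cells, since 8 of 1114 and 2 of 687 of their cells had at least 3 Atp6v1g3 UMIs, of which only 1 was in the secretory gate.

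Caloric restriction called 123 of 7112 genes (1.73%, with 0.492% higher and 1.24% lower) and 0 members, 996 genes being under an unadjusted p of 0.05. Among 29 other pathway genes tested, 2 were called and both were lower. Slc4a8, a sodium-driven chloride-bicarbonate exchanger, was at 10.8 and 16.8 CPM in the restricted mice against 26.7, 34.4 and 30.1 in the 3 control mice, so the groups did not overlap (log2 -1.37, SE 0.30, edgeR adjusted p = 0.0221). Slc26a3, a chloride-bicarbonate exchanger, was at 0 and 1.25 against 4.68, 6.88 and 6.51 (log2 -2.45, SE 0.59, edgeR adjusted p = 0.0416), again without overlap, although the restricted values rest on 4 UMIs. Neither call survives scaling by library size, under which the split of all calls turned from 35 higher and 88 lower to 348 higher and 41 lower and the median of all genes moved by 0.45, and both were lost without either restricted mouse or without the single-mouse control library.

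Rapamycin was tested with age as a factor in the 10 mice of the aging pool, and 0 of 7344 genes were called (0%, 455 at an unadjusted p under 0.05, 3 by DESeq2). Clcn5 was at 1.24 and 23.7 in treated against 3.88 and 5.68 in untreated mice of 20 months, and at 3.02 and 12.5 against 1.72 and 2.14 at 28 months. The groups overlap at 20 months and not at 28 (log2 1.69, SE 0.53, edgeR adjusted p = 0.642). Each treated mouse of 28 months had 1 secretory cell with at least 3 Atp6v1g3 UMIs. Without that cell, an alternative chosen after the data were seen, Clcn5 was at 1.90 and 0.552 in these mice, and the groups overlap there too. Atp6v1g3 had a log2 difference of 1.63 (SE 0.74, edgeR adjusted p = 0.791). Whether the effect of rapamycin differs between the ages was tested as an interaction over the 8 older mice, and 0 of the 5 members were called, with 1 of 6715 genes called in all (0.0149%).

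Outside the secretory cut the restricted genes were read together in a small set of barcodes, in 13 of the 21 mice and in both individual libraries. Clcn5 was also read beyond that set, at a median of 15.9 CPM in fibroblasts of 23 mice, and Atp6v0d2 in other epithelium of the individual libraries. In the 21 mice 39 cells outside the secretory cut, 34 of them in the epithelial gate, had at least 3 Atp6v1g3 UMIs. In the young and old individual libraries 212 of 9164 and 226 of 9113 cells had them (2.31 and 2.48%). With cells inside the secretory cut counted too, the share was 0 to 1.13% in any other mouse. All 4 such cells of the mouse at 1.13% were secretory. In all, 57 cells stood at exactly 3 UMIs and 66 at 2. After thinning each non-secretory epithelial cell to 1000 UMIs, the share with an Atp6v1g3 UMI was 5.42% in the young and 4.66% in the old library (6.67 and 6.66% unthinned), against 0.472% in the aging pool, 0.906% in the diet pool and 1.43% in the single diet libraries (1.09, 1.71 and 1.47% unthinned; 6, 24 and 383 cells were too shallow, and 75 and 50 in the young and old libraries).

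Clcn5 was read in 89.7% of the 39 cells and in 5.47% of 3162 epithelial cells without Atp6v1g3, whose median depth was 2402.5 UMIs against 7833. Foxi1, the regulator, was read in 71.8 against 0.0633%, Atp6v0d2 in 66.7 against 0.0316% and Atp6v1b1 in 33.3 against 0.0949%. In the young and old libraries, where the depths were close at 2883 and 2550 UMIs, the shares were 94.3 against 5.42% for Clcn5, 64.8 against 1.71% for Foxi1, 57.1 against 6.47% for Atp6v0d2 and 19.6 against 0.0275% for Atp6v1b1. For Atp6v0d2 the epithelial cells without Atp6v1g3 still held more UMIs in these libraries, 578 in 470 cells against 405 in 250. The widespread genes separated the cells much less. Atp6v0d1 was read in 26.3 against 25.7% and Atp6v1b2 in 21.7 against 23.3% there, and Car2 in 23.1 against 12.3%. Slc4a9 had 4 UMIs in 4 of the 39 cells and 0 in the 438.

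**Figure D3:**
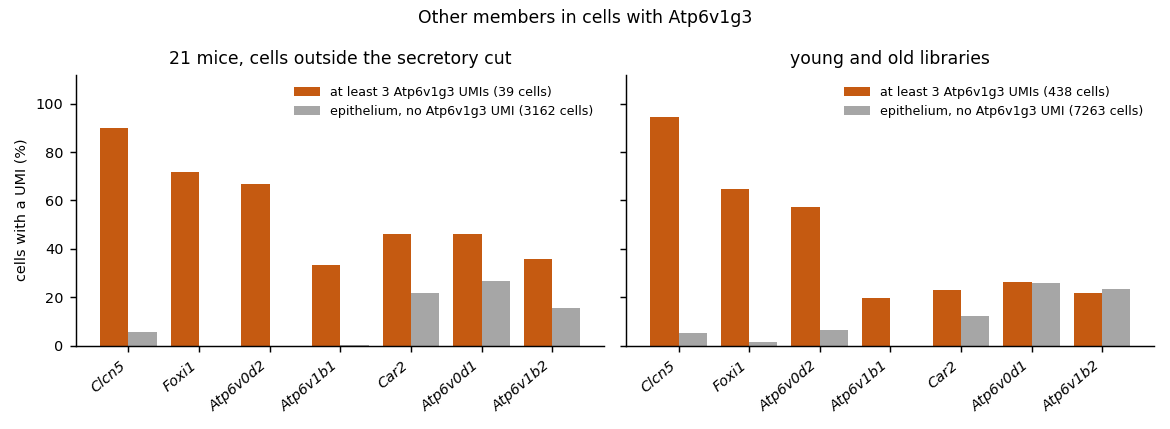
Percent of cells with at least 1 UMI of each gene (y axis) among cells with at least 3 Atp6v1g3 UMIs (orange) and among epithelial cells without Atp6v1g3 (grey), for the cells outside the secretory cut of 21 mice and for the young and old libraries. Clcn5, Foxi1, Atp6v0d2 and Atp6v1b1 differ widely between the bars, and Atp6v0d1 and Atp6v1b2 in the young and old libraries hardly at all.

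Because these genes were read in the same cells as Foxi1, the promoters of 3 of them are shown, from 250 bases before to 50 after the RefSeq start site on build GRCm38.p6, 5′ to 3′ on the strand of the gene. Capitals mark the forkhead core letters TAAACA and CAAACA, on either strand. Atp6v1g3 (gene at chromosome 1, 138273738 to 138289462, plus strand), window chr1:138273488-138273787, has CAAACA 66 bases before the start.
Atp6v1g3: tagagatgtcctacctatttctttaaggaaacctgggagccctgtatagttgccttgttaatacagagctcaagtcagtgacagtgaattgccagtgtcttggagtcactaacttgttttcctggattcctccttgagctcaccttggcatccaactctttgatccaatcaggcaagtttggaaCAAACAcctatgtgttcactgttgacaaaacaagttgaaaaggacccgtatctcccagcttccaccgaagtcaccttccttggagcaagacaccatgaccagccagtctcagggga
Clcn5 (chromosome X, 7153810 to 7319358, minus strand) has a window at chrX:7319309-7319608, minus strand, with 2 matches, at 239 and 191 bases before the start.
Clcn5: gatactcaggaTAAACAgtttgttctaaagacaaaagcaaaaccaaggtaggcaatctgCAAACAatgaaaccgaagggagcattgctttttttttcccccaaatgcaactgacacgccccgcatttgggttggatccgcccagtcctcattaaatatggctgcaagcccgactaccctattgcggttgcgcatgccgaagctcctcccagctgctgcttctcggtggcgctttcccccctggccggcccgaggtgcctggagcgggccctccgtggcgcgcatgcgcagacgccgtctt
Atp6v1b1 (chromosome 6, 83742990 to 83758855, plus strand), window chr6:83742767-83743066, has the full letters of GTAAACA on the opposite strand, 98 bases before the start, which the capitals mark whole.
Atp6v1b1: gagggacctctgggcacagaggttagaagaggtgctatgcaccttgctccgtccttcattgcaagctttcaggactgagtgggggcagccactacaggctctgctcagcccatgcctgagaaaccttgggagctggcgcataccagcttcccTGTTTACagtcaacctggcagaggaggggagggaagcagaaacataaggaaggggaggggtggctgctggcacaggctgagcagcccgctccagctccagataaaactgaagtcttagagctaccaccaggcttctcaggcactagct
Windows were given for 5 of the 9 genes, and those of Atp6v0d1 and Foxi1 held neither 6-letter form. Clcn5 has a second window, chrX:7188665-7188964, which is not shown. It holds 1 match, TAAACA on the opposite strand, 120 bases before its start. Of 32851 RefSeq promoters of this length, 28.2% hold TAAACA or CAAACA on either strand and 3.65% hold GTAAACA, which contains TAAACA, so a match is common and is a description of the letters only.

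Other genes of the pathway lists were compared in the same cells, without a test. Of 67, 17 were at least 2-fold higher in the 39 cells of the 21 mice than in other epithelium and 2 at least 2-fold lower, where 6.80% of 15336 genes were that much higher and 4.43% that much lower. In the young and old libraries 16 were higher and 3 lower, where 10.1% of 16452 genes were higher and 4.21% lower. There were 9 genes higher in both. Atp6v1a, the catalytic A subunit of V1, was at 355 against 74.5 CPM in the 21 mice and 491 against 108 in the young and old libraries. Atp6v1e1, a stalk subunit, was at 426 against 105 and 654 against 174, and Atp6v0b at 629 against 214 and 525 against 255. Each of these 3 was higher in all of the 12 mice, the young and old individuals among them, that had at least 2 such cells outside the secretory cut. The kidney and epididymis a4 subunit gene, Atp6v0a4, was at 25.1 with 12 UMIs against 3, and at 100 against 1.67.

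Of the regulators, Tfcp2l1, a transcription factor of kidney collecting duct, was at 322 against 13.3 and 452 against 17.7 and was higher in the same 12 of 12 mice. Dmrt2 was at 111 against 0.194 and 44.4 against 0.160. The exchanger gene Slc26a3 was at 98.2 against 6.95, and at 127 on 241 UMIs in the young and old libraries, whose other epithelium had 42. Atp6v0c, the ring subunit, was at 1074 against 382 in the 21 mice, but at only 3.17 against 1.47 on 6 UMIs in the young and old libraries. These libraries and the 3 single diet libraries were counted with Cell Ranger 3.1.0 and the pools with 6.0.1, and in secretory cells Atp6v0c had a median of 0.135 CPM in the single diet libraries against 107 and 91.7 in the aging and diet pools, so its levels are not compared between the versions. Atp6v1b2 and Atp6v0d1, the widespread counterparts of Atp6v1b1 and Atp6v0d2, were higher in only 5 of the 12 mice each.

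Of the markers fixed for clear-like cells, the acid-secreting cells of epididymis, Hepacam2, Dmrt2 and Tfcp2l1 were raised and Cftr, Rhbg and Oxgr1 were not, with Cftr at 0 in the 39 cells and at 4.23 against 4.36 CPM in the young and old libraries. The cells were therefore called by their genes and given no cell type name. When the epithelium of the young and old libraries was clustered without any pathway gene, 1 of 23 clusters, with 346 cells, 194 young and 152 old, held 288 of the 383 epithelial cells with at least 3 Atp6v1g3 UMIs. Atp6v1g3 was at 3192 CPM in the young and 3378 in the old cells of that cluster, and Clcn5 at 3186 and 2939. In the 21 mice a cluster of 35 non-secretory epithelial cells held 25 of 34, with Atp6v1g3 at 3136 and Clcn5 at 2211. In the epithelium of the young and old libraries Car2 peaked elsewhere, at 299 in a cluster of 299 cells, and so did Atp6v1b2, at 155 in a cluster of 775.

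The usual ceiling on mitochondrial UMIs fell hard on these cells in the young and old libraries. Of 972 cells with at least 3 Atp6v1g3 UMIs past the other filters, 534 (54.9%) were above 10% mitochondrial UMIs, against 5.12% of cells without Atp6v1g3. Their median was 10.6% against 4.23%. By library it was 258 of 470 young and 276 of 502 old cells. In the 21 mice 2 of 67 were removed, with a median of 2.74%. Of the UMIs of the young and old libraries 61.4% of Atp6v1g3, 58.8% of Clcn5, 58.5% of Atp6v1b1, 50.7% of Foxi1 and 36.0% of Atp6v0d2 lay in cells above the ceiling, against 22.1% for Car2, 7.78% for Atp6v1b2, 6.19% for Atp6v0d1 and 7.17% for all UMIs.

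The cells above the ceiling were not weaker in these genes. In the young library Atp6v1g3 was at 4320 CPM above and 2651 below it, and in the old library at 4054 and 1850. Clcn5 was at 4300 and 2331, and at 3986 and 1721. Foxi1 was at 545 and 432, and at 593 and 305. Atp6v0d1 went slightly the other way, at 79.2 above and 89.7 below in the young library and 61.4 and 76.2 in the old. Whether a high mitochondrial share marks damage in these cells was not tested. In the gated epithelium outside the basal class, the old and young libraries differed by less for most members, with Atp6v1g3 at 180 in the young and 125 in the old, Atp6v0d1 at 97.7 and 97.5 and Atp6v1b2 at 94.7 and 100.1, while Car2 was at 24.9 and 71.4 (1 mouse each, no test).

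In prostate-like cells the widespread genes were high, Clcn5 lay between 6.12 and 29.3 CPM and the other restricted genes had a median of 0. Against secretory cells of the same 13 mice, Car2 had a median of 253 (range 143 to 589) against 37.2 CPM, Atp6v0d1 95.9 (68.0 to 119) against 20.7, and Atp6v1b2 60.6 (33.7 to 88.5) against 4.62. By all UMIs, a scale on which the median gene was higher too, all 3 were higher in 13 of 13 mice. On that scale the cell groups did not overlap. Since the Svs genes fill so much of a secretory cell's RNA, the same was computed over the UMIs outside them, where the 3 genes stayed higher in 13 of 13 mice with median ratios of 2.73, 2.17 and 5.89 in place of 5.72, 4.63 and 12.5. Outside the Svs genes the groups overlapped for Car2, which reached 167 CPM in secretory cells and started at 143 in prostate-like cells. Clcn5 was higher in 10 of 13 mice by all UMIs and in 7 of 13 outside the Svs genes. Atp6v1g3 was at 0 in 10 of the 13.

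The choice of scale matters here. Under edgeR's TMM scaling the median gene moved by 0.04 on the log2 scale and under library size by 1.98, and relative to the TMM scale Atp6v1b2 was at 1.60, Car2 at 0.70, Atp6v0d1 at 0.12 and Clcn5 at -1.49, against 3.57, 2.68, 2.10 and 0.50 by library size. Clcn5 thus changes direction between them, and Atp6v0d1 is close to the median gene. Svs5 in prostate-like cells was at a median of 0.922% of its secretory level in the same mouse and at most at 5.94%, and each mouse's own share of its secretory level comes to at most 1.38 CPM for Car2 and 2.01 for Clcn5.

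**Figure D4:**
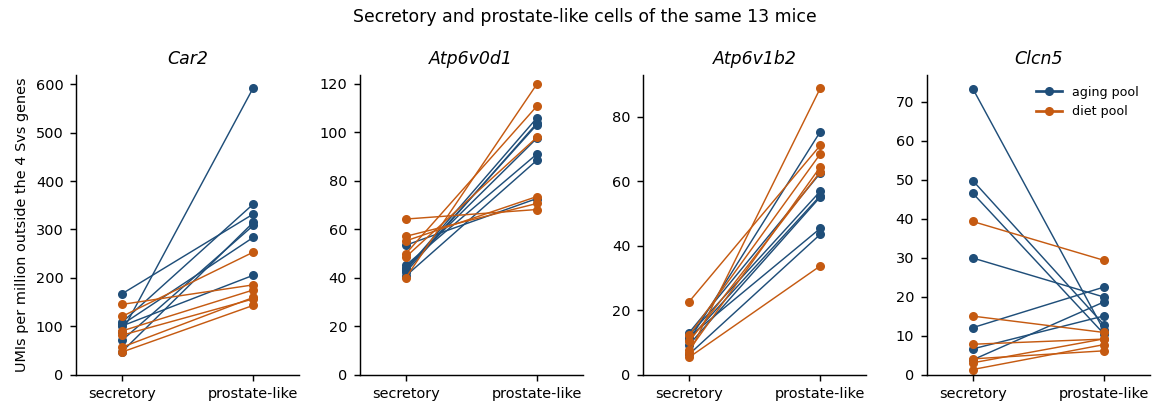
CPM over the UMIs outside Svs2, Svs4, Svs5 and Svs6 (y axis, linear, from 0) in secretory and prostate-like cells of the same mouse, 1 line per mouse for 13 mice. Every line rises for Car2, Atp6v0d1 and Atp6v1b2, and 7 of 13 rise for Clcn5.

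The other pathway genes may be tested in this contrast. Of 36, 25 were called (50.2% of 10525 genes were, 25.7% higher and 24.5% lower), 14 higher and 11 lower in prostate-like cells. By library size 36 were called, as were 10135 genes of which 9919 were higher, and 34 of the 36 were higher, so the 9 genes lower by TMM other than Slc4a8 and Car5b turn direction with the scaling. Atp6v1c2, a C subunit isoform of lung and kidney, rose by 3.93 (SE 0.20, edgeR adjusted p = 4.18e-15) and the sodium-bicarbonate cotransporter gene Slc4a4 by 2.88 (SE 0.50, edgeR adjusted p = 4.61e-05). Atp6v1g2 rose by 2.16 and Atp6v0e2, a small V0 subunit isoform, by 1.33. Slc4a8 fell by 6.30 (SE 0.23, edgeR adjusted p = 7.34e-18) and the mitochondrial carbonic anhydrase gene Car5b by 2.77, and by library size these 2 fell by 4.39 and 0.82. Atp6v0a1, a widespread a subunit, was at -1.02 by TMM and 0.96 by library size, and Tfcp2l1 at -1.09 and 0.81.

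Each stromal and immune class was tested against the sum of the other such classes and basal cells of the same mouse. Basal cells are epithelium, on which the choice of the genes rested in the young and old libraries, so the same tests were also run without basal cells in the comparator, an alternative chosen after the data were seen. A member is counted only where the libraries of the class and those of the comparator each passed the count filter alone, since a gene that passes through 1 side had to differ. In macrophages, whose lysosomes and phagosomes are acidified by this pump, 3 of 3 such members were called higher (67.4% of all genes were called, 25.6% higher and 41.8% lower). Over 23 mice Atp6v1b2 was at a median of 84.7 CPM with a range of 0 to 206 (log2 2.30, SE 0.15, edgeR adjusted p = 4.57e-15), and Atp6v0d1 at 110 with a range of 64.2 to 206 (log2 0.92, SE 0.12, edgeR adjusted p = 3.47e-08). Clcn5 was at 21.7 with a range of 0 to 54.5 (log2 0.92, SE 0.25, edgeR adjusted p = 0.00185). Without basal cells in the comparator the log2 differences were 2.42, 0.87 and 1.49, and Clcn5 then passed the filter through macrophages alone. Atp6v0d2, also an osteoclast and macrophage subunit, passed the filter through macrophages alone, and its 36 UMIs lay in 14 cells, 15 of them in a single cell of a caloric restriction mouse, with 16 of 23 mice at 0. Car2 had 40 UMIs and Atp6v1g3 had 0 UMIs in 1372 macrophages, and both passed through the comparator alone.

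Of 28 other pathway genes in macrophages, 22 were called, 16 of them higher. Tcirg1, the a3 subunit of osteoclasts and macrophages, rose by 3.17 (SE 0.16, edgeR adjusted p = 2.74e-17), Atp6v1c1 by 2.00, Atp6v1a by 1.97 and Atp6v1e1 by 1.46, while Slc4a4 fell by 3.37 and the chloride channel gene Ano1 by 3.70. By library size 14 were higher and 8 lower, the calls over all genes went from 2169 higher and 3536 lower to 1666 and 4760, and the median of all genes was at -0.55 in place of -0.24.

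**Figure D5:**
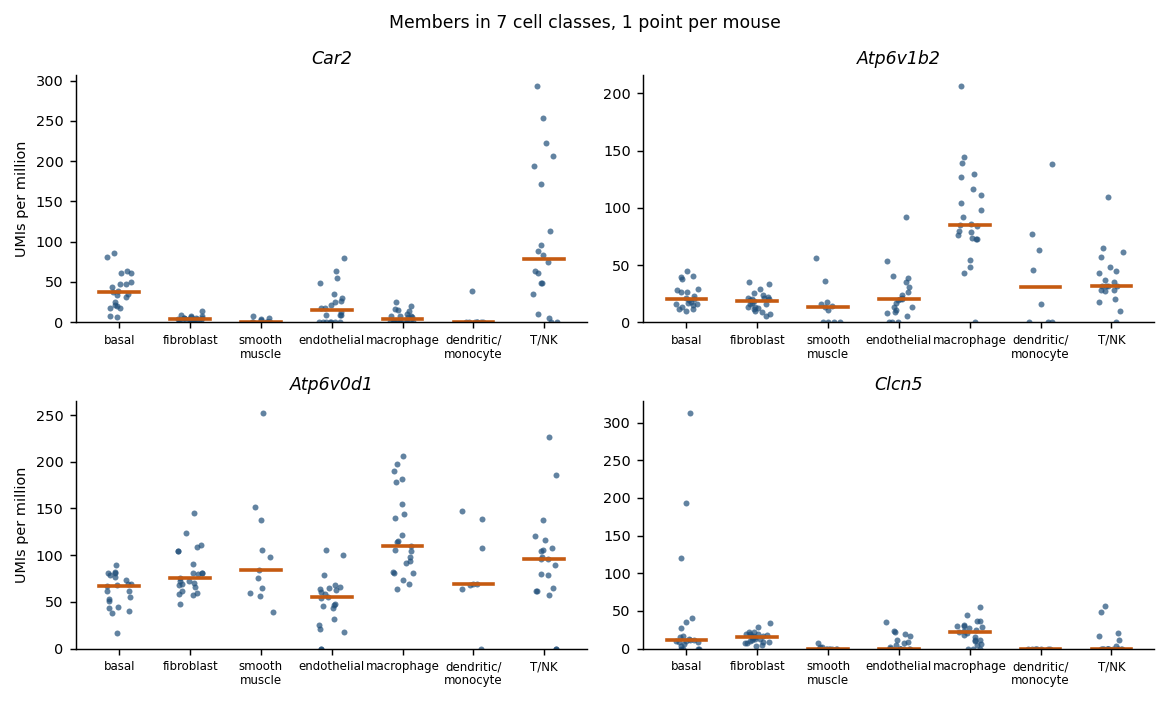
CPM (y axis, linear, from 0) of 4 members in 7 cell classes, 1 point for each mouse with at least 10 cells of the class and a bar at the median. Atp6v1b2 is highest in macrophages, with a median of 84.7, and Car2 in T/NK cells, with a median of 78.9.

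In T/NK cells Car2 was called higher, the only one of 3 members called (61.6% of all genes, 19.1% higher and 42.5% lower). Over 20 mice its median was 78.9 CPM, from 0 in 2 mice to 293, and the log2 difference was 2.05 (SE 0.30, edgeR adjusted p = 2.77e-07). The signal lay in 95 of 717 cells. Without basal cells in the comparator the difference was 3.07, Car2 then passed the filter through T/NK cells alone, and Atp6v1b2 was called lower (log2 -0.49, edgeR adjusted p = 0.0290, against -0.38 and 0.0691). Clcn5 had 12 UMIs in these cells and passed through the comparator alone. Of the other pathway genes 20 were lower and 1 higher, and by library size 15 lower and 4 higher, while the calls over all genes went from 1751 higher and 3907 lower to 2947 and 2848.

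In basal cells the members are described only (60.6% of all genes were called, 24.4% higher and 36.2% lower). Car2 was at 38.0 CPM with a range of 6.48 to 86.5 over 21 mice. Atp6v1g3 was at 0 in 14 of these mice and at most at 132, and 36 of 5267 basal cells held 87.8% of its UMIs and 69.9% of those of Clcn5. In fibroblasts 1 of 3 members was called (61.5% of all genes, 33.0% lower), Atp6v1b2 at a median of 18.6 (log2 -1.03, SE 0.15, edgeR adjusted p = 1.11e-06). Car2 was at a median of 4.36 CPM there on 48 UMIs and Atp6v1g3 had 17 UMIs, both passing through the comparator alone. In endothelial cells 3 of 4 were lower (56.0% of all genes called, 38.2% lower), namely Clcn5 by 2.38, Atp6v1b2 by 1.04 and Atp6v0d1 by 1.01. Clcn5 was at 0 in 12 of 22 mice there and did not pass the filter without basal cells in the comparator. In smooth muscle cells 1 of 2 was lower (46.5% of all genes called, 33.6% lower), namely Atp6v1b2 by 1.08, while Car2 had 23 UMIs, Clcn5 17 and Atp6v1g3 5, all passing through the comparator alone. By library size the calls over all genes went from 1731 higher and 3702 lower to 2625 and 2459 in endothelial cells and from 1317 and 3431 to 1772 and 2665 in smooth muscle, with 3 and 1 members lower as before. In dendritic and monocyte cells of 8 mice 0 of 2 were called by edgeR (41.7% of all genes, 9.81% higher and 31.9% lower, and 3589 genes under an unadjusted p of 0.05). Pericytes and B cells had 3 mice each and were not tested.

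By class medians over 10 classes in the 2 pools, the genes most like Clcn5 were Zdhhc9, Trp53rkb and Rfx1 (Pearson r of log2(CPM + 1) 0.981, 0.978 and 0.977). Most like Atp6v1b2 were Cited2, Ap1b1 and Pik3cb (0.970, 0.920 and 0.902), most like Atp6v0d1 Cyb5r4, Alkbh3 and Sms (0.968, 0.951 and 0.948), and most like Car2 Mien1, Nans and Gata3 (0.951, 0.934 and 0.931). The classes share mice and libraries, so these are descriptions without a p. The other 5 members were under 10 CPM in every class by median, and no pattern was computed for them.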

How the data were processed

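The authors deposited UMI counts per gene and cell for each mouse, made with Cell Ranger 6.0.1 (18 matrices of the pools, whose mice are told apart by the deposited multiplexing sheets) and 3.1.0 (5 single-mouse matrices) on mm10, and their processing notes name Seurat. From these deposited counts, cells with at least 500 genes, 200 UMIs and at most 10% mitochondrial UMIs were kept, classes were gated by fixed markers, and UMIs were summed per mouse and class, using classes with at least 10 cells. The members and the gene lists were chosen with earlier results of these data known. Contrasts over all genes were fitted with edgeR 4.0.16 (quasi-likelihood test, TMM, default expression filter, Benjamini-Hochberg adjustment, threshold 0.05) in R 4.3.3, with DESeq2 1.42.0 as an alternative. Mice of a group are separate animals. Clusters used scanpy 1.11.5 and leidenalg 0.10.2 at resolution 1, or 0.5 where named. Share intervals are exact binomial, and they and the floor of 3 counts cover counting error only. The fits were tested on simulated counts, recovering 57 of 100 genes changed by log2 1 and 99 of 100 by log2 2 for high fat (6723 genes, 16 false calls), 46 and 90 for rapamycin (6936 genes, 10 false calls) and 29 and 73 for age (6596 genes, 4 false calls). Genes named were the members, their paralogs, at most 5 other pathway genes called in each direction per test, and the 3 genes most like each member; those named in the Atp6v1g3 cells were chosen after their values were seen. Alternatives were DESeq2, library-size scaling, no count filter, other gates and filters, a replicate block and leaving out each mouse. Of the cells kept, 19.1% were in no class. A gene of the pathway lists is not reported here.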

Additional observations from a re-analysis of the deposited data

Results flagged for a closer look

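In 3 of 17 groups of mice a value lay far from the rest, by a gap rule. The rule marks about 1 in 20 groups by chance where values vary smoothly. These levels rest on few cells, and for Slc4a9 on 1 UMI, so 3 of 17 cannot be read against that rate. The genes were chosen from these levels, so the 3 values are a description and no test. Atp6v1g3 in secretory cells of one 3-month mouse was at 29.1 CPM, with the nearest of the other aging-pool mice at 15.1. Clcn5 in secretory cells of a control mouse of the diet pool was at 17.5, with the nearest of the other 7 mice at 6.08. Without its cells of at least 3 Atp6v1g3 UMIs, that control mouse was at 2.08. Slc4a9 was at 0.0919 in the other 3-month mouse and 0 in the rest of that pool, which is a single UMI.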

How the results depend on the processing

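Members called stayed at 0 under the high fat diet with every alternative. Without the filter on low counts 2 members were called under low protein, 2 under caloric restriction and 2 under rapamycin, and 4 other pathway genes in the age trend; the cause was not tested. Then all genes called were 29, 316, 185 and 250, and 17 under high fat. The 2 other pathway genes called under caloric restriction became 0 by library size, 0 with the replicate block, 1 with an Svs share of at least 20% and 0 to 2 without each mouse in turn, and the 123 genes called became 204 by DESeq2, 389 by library size, 40 with the replicate block and 53, 67 and 69 without the single-mouse control library, control mouse 1 and the single-mouse high fat library. DESeq2 called 3 genes under rapamycin and 8 in the age trend, and the block 1 under low protein. DESeq2 gave no adjusted p for Slc26a3. Numbers did not pair the mice (10 pairs of groups in the aging pool correlated between -0.294 and 0.107, 6 in the diet pool between -0.160 and 0.137), and the block changed no member call. Prostate-like against secretory calls were 5281 genes by TMM and 10135 by library size. Class calls of members were 9, and 9, 10 and 7 by library size, with cells of at least 200 genes and without basal cells in the comparator. Scaled to the UMIs outside the Svs genes, secretory medians moved to 10.3 for Atp6v1b2, 45.1 for Atp6v0d1 and 71.3 for Car2. Without the mitochondrial ceiling, chosen after seeing the data, cells with 3 Atp6v1g3 UMIs were 4.91% of the young and old cells in place of 2.40%, and their cluster held 856 cells in place of 346.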

Other observations

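Ranked by fold, 13 of the 20 leading genes of the Atp6v1g3 cells in the 21 mice were also among the 20 leading genes in the young and old libraries, and these genes were named after their values were seen. Iapp, the gene of islet amyloid polypeptide, was at 2854 CPM in the 39 cells against 0.0972 in other epithelium, and at 8264 against 10.4 in the young and old libraries, and was read in 28.2 and 66.0% of the Atp6v1g3 cells. Stap1, a signalling adaptor, was at 391 on 187 UMIs where other epithelium had 23, and at 1222 against 4.46, and Il13ra2, a receptor of interleukin 13, at 130 against 0.389 and 230 against 0.801. Coch was at 165 in the 39 cells and at 2.64 in the young and old libraries. These are values of 39 and 438 cells, with no test.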
